A study of Mus musculus with 88 samples.

Results

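The proteins described here belong to the tumour necrosis factor (TNF) response. They are TNF itself, 2 receptors of its superfamily (Tnfrsf1b and Tnfrsf26), the adaptors Traf1 and Traf2, the ubiquitin-editing enzyme Tnfaip3 (A20) with its partner Tnip1 (ABIN1), and 3 proteins of the TNFAIP name series (Tnfaip2, Tnfaip8 and Tnfaip8l2). A protein group, the set of proteins that the measured peptides could not tell apart, was taken where its first gene name was one of these 10 genes. This gave 11 of the 5899 groups kept from the trypsin digests, standing for 9 genes. Tnfaip8 headed 3 of them, of which that of the 198-residue form carried most peptides and is called the main group. No kept group was headed by Tnf, which is not analysed here.

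Bone marrow from female C57BL/6J mice, with no genetic change named in the labels, was grown with GM-CSF into dendritic cells, which were pooled before the stimulus. They received lipopolysaccharide (LPS, from the bacterial outer wall, 100 ng per ml) or a mock stimulus, and were taken at 0 h (unstimulated), at 0.5 h, hourly from 1 to 6 h, and at 9, 12 and 24 h, with 2 replicates in each of the 21 groups (42 runs). Amino acids of medium mass (M) marked protein made before the stimulus and heavy ones (H) protein made after it, so H/L measures new, M/L pre-existing and their sum total protein, each against a shared light mix (L) of unlabelled cells. Each ratio was divided by a factor common to its run, and all ratios below are on that scale. Early is the mean of 1, 2 and 3 h, late that of 6, 9 and 12 h, and a change is log2 of LPS over mock ± its standard error.

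LPS is sensed by Toll-like receptor 4, which, like the TNF receptors, switches on the transcription factor NF-kB. Stimulated myeloid cells secrete TNF, so signalling from the bacterial ligand and from TNF can run together in one culture. TRAF adaptors carry the signal from receptor to kinases, and several of the genes they switch on, A20 among them, feed back to shut it off. Each protein level therefore depends on making and on loss, which pulsed labelling reads through separate channels.

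The members moved in opposite directions. New Tnfaip2 was 3.15-fold higher late after LPS. New Traf1 was 3.61-fold higher in the late samples where it was measured, which reached 12 h only in the LPS arm. New Tnfaip8l2 was 2.35-fold lower and new Tnfrsf26 was 1.94-fold lower. Of the 6 members with enough values for limma's test of new protein late, 1 rose, 2 fell and 3 did not pass. Over all 3316 proteins tested, 12.1% were called at an adjusted p under 0.05, 10.4% as higher and 1.69% as lower. New Tnfaip8l2 ranked 30 from the lowest change and new Tnfrsf26 ranked 57 from the lowest.

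**Figure D1:**
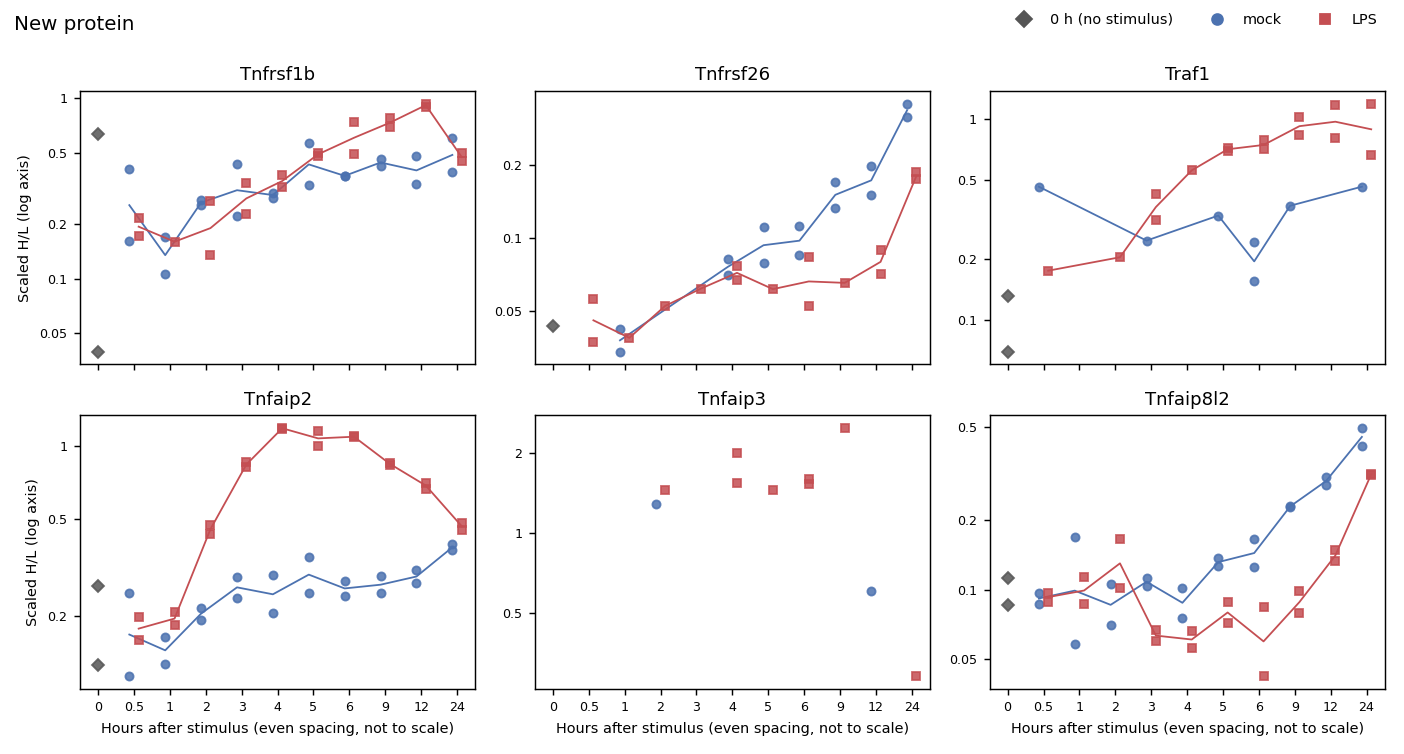
Scaled H/L (new protein, log axis) of 6 members at each time, 1 point per sample, with lines through the geometric mean of each group where over 10 samples had a value. Tnfaip2 in LPS cells parts from mock at 2 h and nears it again at 24 h. Traf1 in LPS cells lies above the mock samples of the same time from 3 h on, where both were measured. Tnfaip8l2 and Tnfrsf26 in LPS cells stay low to 9 h while mock cells climb, and rise by 24 h to values below the mock samples of that time.

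The runs were alike in depth, with 3538 to 4082 proteins with an H/L ratio each. The run factor lay at 0.89 (log2) for LPS 12 h replicate 2 and at or below 0.40 for every other run, and leaving that run out ended none of the 14 calls reported here for members. The heavy channel was not empty before label, since the median protein at 0 h had a scaled H/L of 0.122. Dendritic cell markers were present at 0 h (6 of 10, among them Itgax, Cd74 and H2-Ab1), while Flt3, Zbtb46, Ciita and Dpp4 were not found. Markers of macrophages (9 of 10) and granulocytes (10 of 11) were found too, and 1 of 12 lymphocyte markers (Lck). The dendritic list took 0.0428% to 0.0612% of summed iBAQ (intensity per theoretical peptide) in the M channel at 0 h. The macrophage list took 0.948% to 1.27% and the granulocyte list 4.49% to 4.71%. Most of the macrophage sum came from Lyz2, and most of the granulocyte sum from S100a8 and S100a9. These sums cover unlike proteins and are not counts of cells. Separate cultures are not named for the replicates in the labels, so each p reflects the scatter of these samples alone, and that scatter may be technical.

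To set the protein values beside the genes' control regions, the 250 bases before the annotated start were read for 4 members from RefSeq (GRCm38.p6, mouse). Shown are the member with the largest tested rise (Tnfaip2), the feedback protein A20, and Traf1 and Tnfaip8l2, which moved apart. Capitals mark matches to the 10-letter NF-kB consensus on either strand.
Tnfaip2 (chr12:111442411-111442660, + strand): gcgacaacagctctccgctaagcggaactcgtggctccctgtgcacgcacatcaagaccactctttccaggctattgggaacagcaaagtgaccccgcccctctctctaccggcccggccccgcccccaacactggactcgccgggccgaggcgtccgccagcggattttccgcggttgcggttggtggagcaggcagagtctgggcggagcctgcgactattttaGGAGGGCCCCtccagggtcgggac
Tnfaip3 (chr10:19015411-19015660, - strand): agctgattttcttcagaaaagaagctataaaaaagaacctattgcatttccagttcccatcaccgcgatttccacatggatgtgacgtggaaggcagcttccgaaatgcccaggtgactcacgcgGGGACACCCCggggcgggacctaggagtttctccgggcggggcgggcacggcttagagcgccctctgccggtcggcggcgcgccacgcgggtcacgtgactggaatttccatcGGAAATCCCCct
Traf1 (chr2:34961773-34962022, - strand): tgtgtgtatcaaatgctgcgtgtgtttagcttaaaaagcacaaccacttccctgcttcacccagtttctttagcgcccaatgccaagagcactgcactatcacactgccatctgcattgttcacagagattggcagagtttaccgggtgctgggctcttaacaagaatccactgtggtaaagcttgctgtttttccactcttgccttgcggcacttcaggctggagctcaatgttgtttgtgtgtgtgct
Tnfaip8l2 (chr3:95142355-95142604, - strand): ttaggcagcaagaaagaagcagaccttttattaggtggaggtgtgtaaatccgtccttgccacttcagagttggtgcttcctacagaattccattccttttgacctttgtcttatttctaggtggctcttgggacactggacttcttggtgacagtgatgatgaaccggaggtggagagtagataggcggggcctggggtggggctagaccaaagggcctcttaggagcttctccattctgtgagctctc
Tnfaip2 had 1 match, starting 24 bases before its start. Tnfaip3 had matches starting 125 bases before (the same letters on both strands) and 12 bases before the start of this promoter, and none in a second promoter listed for it. Tnip1, not printed, had a group of overlapping matches starting 58 to 56 bases before its start. Thus 3 of the 8 member genes in the table held a match, against 7.25% of the 32851 windows of this length. The members were counted by gene and the background by window, so these shares are not in the same unit. No match was found in the windows of Traf1, Traf2, Tnfrsf1b, Tnfaip8l2 and Tnf, which says only that these letters are absent from them, and no binding was measured.

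Tnfrsf1b, TNF receptor 2, binds TNF at the surface of immune cells and recruits TRAF2 directly. Its late new protein ran from 0.494 to 0.935 in LPS samples (median 0.759) and from 0.334 to 0.476 in mock samples (median 0.397). Those ranges did not overlap, and the LPS sample was the higher one in all 6 pairs matched by time and replicate number, although the numbers are not known to mark a shared culture, here or in the pair counts that follow. The late change of 0.88 ± 0.42 missed the threshold (limma, adjusted p = 0.244). The 0 h samples themselves lay far apart, at 0.635 and 0.0393. Subtracting the mean of the 0 h samples, 0.337 for this protein, gave 2.29 (limma, adjusted p = 0.0127). The lowest late mock value (0.334) lay below that mean and the highest was 0.476, so little mock signal remained. This alternative therefore cannot decide the call. Total receptor lay at 0.901 against 0.599 (medians), a change of 0.59 ± 0.21 (adjusted p = 0.0556), and pre-existing receptor changed by -0.36 ± 0.35 (adjusted p = 0.586), or by -0.04 without LPS 12 h replicate 2 (adjusted p = 0.966). At 24 h new receptor measured 0.450 and 0.497 in LPS and 0.604 and 0.391 in mock samples, which overlapped.

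Tnfrsf26 is a TNF receptor relative of the mouse, close to the decoy receptors for the ligand TRAIL. In mock cells its new protein climbed from 0.0341 and 0.0425 at 1 h through 0.198 and 0.150 at 12 h to 0.356 and 0.314 at 24 h. In LPS cells it was 0.0896 and 0.0712 at 12 h and 0.174 and 0.186 at 24 h. The late LPS samples (0.0524 to 0.0896, n = 5) overlapped the mock samples (0.0850 to 0.198, n = 6) only at their edge, and 5 of 5 pairs were lower. New Tnfrsf26 fell by 0.96 ± 0.19 on the log2 scale (limma, adjusted p = 0.0027), with -1.87 where the 0 h background was subtracted (adjusted p = 0.0186). That background rested on the 1 sample at 0 h with a value (0.0436), and the lowest late LPS value (0.0524) lay close to it. The subtracted change thus rests on LPS values near the floor. At mid times (4 and 5 h) the change was -0.34 ± 0.24 (adjusted p = 0.998).

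Pre-existing Tnfrsf26 was 0.368 and 0.433 at 12 h and 0.299 and 0.369 at 24 h in LPS samples, against 0.503, 0.560, 0.535 and 0.481 in mock samples. None of these LPS samples reached its mock counterparts. Early on the order was the other way, with 0.475 to 0.583 in LPS and 0.397 to 0.491 in mock samples, which overlapped, and the LPS sample higher in 6 of 6 pairs (not tested). Its late change over 6, 9 and 12 h was -0.21 ± 0.08 (adjusted p = 0.0807). Total Tnfrsf26 fell late by 0.29 ± 0.07 (adjusted p = 0.00817, lower in 4 of 5 pairs) and at 24 h by 0.72 ± 0.11 (adjusted p = 0.000164, lower in 2 of 2 pairs), a 1.64-fold difference. For that 24 h comparison 37.0% of all proteins were called, and 2 of the 5 members tested. Without the run factor the late change of new Tnfrsf26 was -0.70 (adjusted p = 0.167) and that of its total at 24 h -0.48 (adjusted p = 0.824), and the late total was -0.04 (adjusted p = 0.97). From summed intensities that late total was -0.30 (adjusted p = 0.14), and with the deposited normalised ratios -0.74 (adjusted p = 0.00127). From replicate 2 or replicate 1 alone these were -0.71 and -1.12 late (adjusted p = 0.225 and 0.187) and -0.52 and -0.91 at 24 h (adjusted p = 0.151 and 0.0633), and the late total was -0.21 and -0.46 (adjusted p = 0.35 and 0.197). A median of 2 peptide pairs per run stood behind its H/L ratios, from 2 unique peptides.

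**Figure D2:**
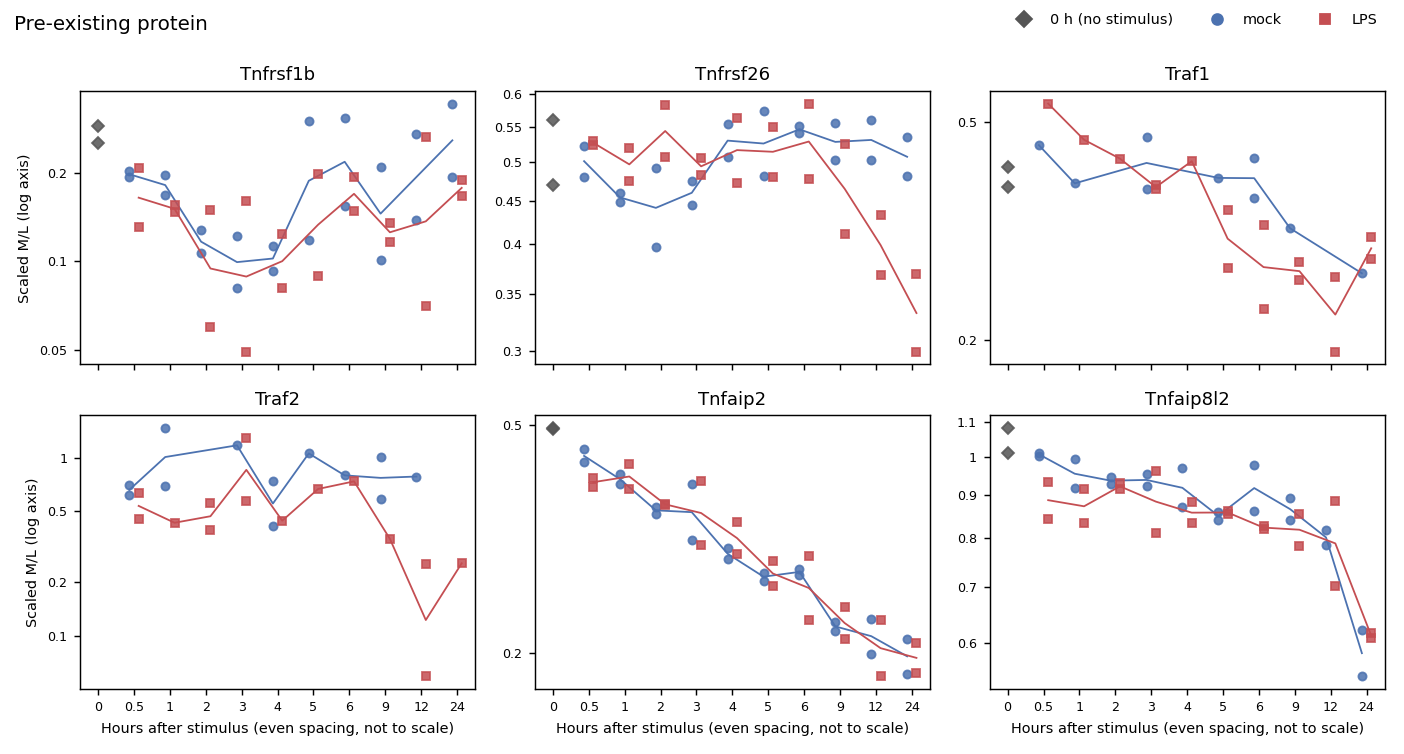
Scaled M/L (pre-existing protein, log axis, a different range in each panel) of 6 members, 1 point per sample, with lines through the geometric means. Tnfaip2 falls along the same course in both arms, Tnfrsf26 in LPS cells drops below mock at 12 and 24 h, and Traf2 in LPS cells is lowest at 12 h.

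Traf1 is an adaptor that pairs with TRAF2 and is itself made on NF-kB activation. Before the stimulus its scaled H/L was 0.0692 and 0.132. New protein in LPS samples was 0.422 and 0.315 at 3 h, 0.783 and 0.706 at 6 h, 1.02 and 0.830 at 9 h, 1.18 and 0.801 at 12 h and 1.19 and 0.662 at 24 h. Single mock samples gave 0.461 at 0.5 h, where the LPS value was 0.176, 0.248 at 3 h and 0.331 at 5 h. Later mock samples gave 0.157 and 0.244 at 6 h, 0.370 at 9 h, no value at 12 h and 0.461 at 24 h. Every late LPS sample (0.706 to 1.18) lay above every late mock sample (0.157 to 0.370). With 6 values against 3 the model did not test Traf1. An exact permutation test that pooled the late times, chosen after the data were seen, gave a two-sided p = 0.0238 for a difference of 1.85 (log2). The LPS samples at 12 h had no mock counterpart in it, so treatment and time were mixed. At matched times the difference was 1.93 at 6 h and 1.32 at 9 h. The same permutation test on total Traf1, with the same mixing of times, gave a 1.80-fold difference and an exact p = 0.0238. Both were 0.0238 also when adjusted over these 2 tests, where each two-sided p is the one-sided 0.0119 (1 of 84 splits, the smallest possible) times 2.

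Values were also missing unevenly, since Traf1 had an H/L ratio in 15 of 20 LPS runs and 7 of 20 mock runs. From summed channel intensities, which gave 6 late values in each arm, new Traf1 rose by 1.95 ± 0.51 (limma, adjusted p = 0.0228) and total Traf1 by 1.21 ± 0.31 (adjusted p = 0.0218). Pre-existing Traf1 was 0.415 and 0.380 at 0 h, 0.541 in the single LPS sample at 0.5 h, and 0.261 and 0.190 in LPS samples at 12 h. The late LPS samples (0.190 to 0.325) overlapped the mock samples (0.320 to 0.430), and 3 of 3 pairs were lower. Summed intensities did not show this difference, with a late change in pre-existing Traf1 of 0.12 ± 0.34 (adjusted p = 0.944). New protein made up 71.6% to 81.8% of Traf1 in the late LPS samples and 26.7% to 53.6% in the mock samples, without overlap.

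Traf2 is the adaptor that brings the cIAP ubiquitin ligases to TNF receptors. It was among the scarcer members, with 26 runs of 42 giving a ratio and a median of 2 peptide pairs. Its new share was 14.9% to 21.4% in the late mock samples (n = 4) and 52.8% to 62.3% in the late LPS samples (n = 4), and the arms did not overlap. Over 0.5 to 12 h the log2 share of pre-existing Traf2 changed by 0.013 per hour in mock cells and by -0.095 per hour in LPS cells. This difference of -0.108 ± 0.024 per hour passed (limma, adjusted p = 0.00177), meaning that the pre-existing share was lost faster after LPS. With the deposited normalised ratios it was -0.107 and did not pass (adjusted p = 0.925), and without replicate 2 it had fewer values than the minimum set for the test.

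The ratios to the light mix were less clear for Traf2. Late new protein measured 0.825 at 6 h, 0.462 at 9 h and 0.407 and 0.0978 at 12 h after LPS, against 0.140, 0.264, 0.150 and 0.165 in mock samples. The lowest LPS value lay below all mock values, and the change of 1.35 ± 0.62 did not pass (adjusted p = 0.273). Pre-existing Traf2 ended at 0.254 and 0.0591 at 12 h after LPS, and its late change of -1.31 ± 0.50 did not pass either (adjusted p = 0.118). Total Traf2 changed by -0.36 ± 0.49 (adjusted p = 0.726).

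Tnfaip3, or A20, removes and adds ubiquitin chains on signalling proteins and restrains NF-kB. It had no ratio at 0 h and an H/L ratio in 7 of 14 LPS runs from 2 to 12 h, against 2 of 14 mock runs. The LPS values were 1.45 at 2 h, 1.54 and 2.00 at 4 h, 1.45 at 5 h, 1.60 and 1.53 at 6 h and 2.49 at 9 h. The mock values were 1.29 at 2 h and 0.603 at 12 h, both below every one of these. At 24 h the single LPS value was 0.288, the lowest of all. New protein was 69.7% to 83.8% of A20 in those 7 LPS samples and 63.8% and 41.2% in the mock samples. No test was made for A20, since each of these ratios rests on 2 to 6 peptide pairs and 18 of 20 mock runs gave none.

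Tnip1, an A20-binding adaptor for linear ubiquitin chains, gave a ratio in 10 of 42 runs. Its new share was 15.5% and 17.2% at 0 h, 60.9% in a mock sample at 9 h, 81.7% in an LPS sample at 12 h, and at 24 h 75.7% in LPS against 63.6% in mock. Pre-existing Tnip1 went from 0.967 and 0.655 at 0 h to 0.149 at 12 h and 0.160 at 24 h in LPS samples and to 0.258 at 24 h in a mock sample. With 4 values in each stimulated arm no test was made.

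Tnfaip2, also called M-Sec, is a cytosolic protein linked to membrane nanotubes and first found as a TNF-induced transcript. It was measured in all 42 runs from 19 unique peptides. New Tnfaip2 in LPS cells was 0.208 and 0.182 at 1 h, 0.474 and 0.435 at 2 h, 0.821 and 0.854 at 3 h and 1.19 and 1.18 at 4 h. It then stood at 1.16 and 0.997 at 5 h, 1.09 and 1.09 at 6 h, 0.832 and 0.853 at 9 h, 0.706 and 0.667 at 12 h and 0.482 and 0.453 at 24 h. Mock samples moved between 0.113 at 0.5 h and 0.393 at 24 h. LPS samples lay above both mock samples of their time at every time from 1 h on, most widely at 4 h and least at 24 h.

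The change in new Tnfaip2 was 1.09 ± 0.18 early (limma, adjusted p = 0.00161, higher in 6 of 6 pairs), a call made for 0.475% of all proteins. At mid times it was 2.06 ± 0.22 (adjusted p = 1.02e-06, 4 of 4 pairs), where 2.18% of all proteins were called. It was 1.66 ± 0.18 late (adjusted p = 1.69e-07, 6 of 6 pairs). At 24 h it was 0.29 ± 0.31 (adjusted p = 0.769), and none of the 5 members tested passed there (0 at an adjusted and 1 at an unadjusted p under 0.05, limma), against 9.53% of all proteins. The late call held under all alternatives run, with 3.15 where the 0 h background was subtracted and 1.03 with the deposited normalised ratios, while the early call was lost without the run factor (1.10, adjusted p = 0.0892) and from summed intensities (0.72, adjusted p = 0.238). From replicate 2 or replicate 1 alone the early change was 1.18 and 1.00 (adjusted p = 0.27 and 0.407) and the mid change 2.26 and 1.87 (adjusted p = 0.0967 and 0.106). The mid change was 4.15 with the 0 h background subtracted (adjusted p = 0.00028), and the early one 1.77 with the deposited normalised ratios (adjusted p = 4.92e-05). New Tnfaip2 at 0 h was 0.265 and 0.125 (mean 0.195), while mock samples ran from 0.205 to 0.350 at mid times and from 0.241 to 0.308 late. Little mock signal therefore remained after subtraction, which enlarges the subtracted changes of 4.15 and 3.15, and they add little to these calls.

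Pre-existing Tnfaip2 declined alike in both arms. It went from 0.494 and 0.492 at 0 h to 0.200 and 0.230 at 12 h in mock samples and to 0.228 and 0.182 in LPS samples, and the arms overlapped. Its late change was -0.05 ± 0.08 (limma, adjusted p = 0.773), although summed intensities gave 1.05 (adjusted p = 0.037). Total Tnfaip2 was 1.50 ± 0.04 (SD, n = 2) after LPS and 0.547 ± 0.054 (SD, n = 2) in mock cells at 4 h, and 0.664 ± 0.004 and 0.581 ± 0.035 (SD, n = 2 each) at 24 h. Late total protein rose by 1.09 ± 0.07 (adjusted p = 7.53e-12), the largest change among the members tested and the 50th highest of 3316.

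**Figure D3:**
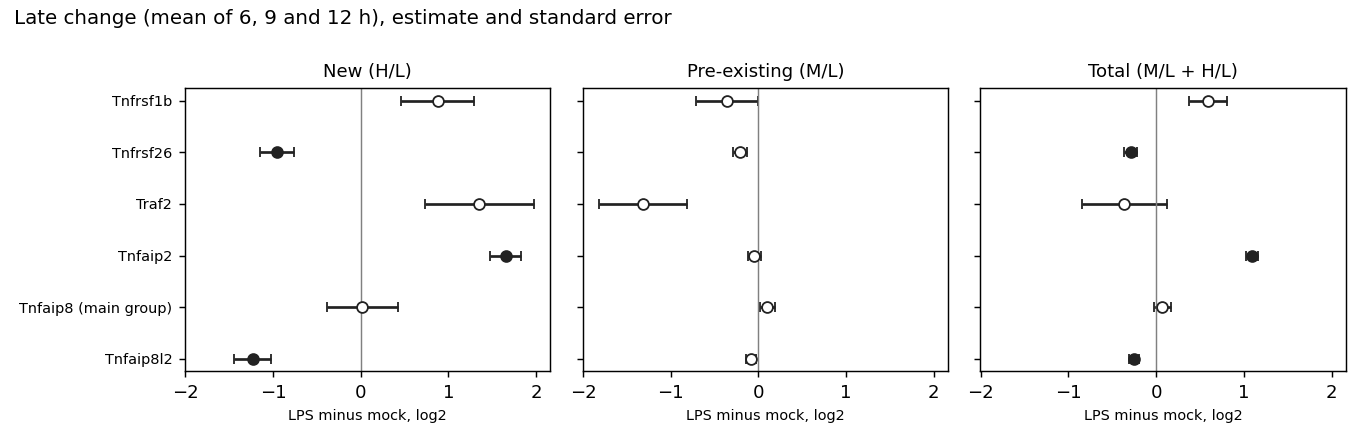
Late change of LPS over mock (log2) in new, pre-existing and total protein for the 6 members tested, with bars for the standard error and filled points for an adjusted p under 0.05. Tnfaip2 lies to the right and Tnfrsf26 and Tnfaip8l2 to the left of 0 in new and in total protein, and no point is filled in the pre-existing panel.

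Across the late comparisons, 3 of 6 members passed in total protein (1 higher, 2 lower) and none in pre-existing protein (0 at an adjusted and 2 at an unadjusted p under 0.05, limma). All proteins gave 19.2% in total and 16.5% in pre-existing protein. Pre-existing and total protein share the light denominator with new protein, so these counts are not independent of each other.

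Tnfaip8 and Tnfaip8l2 are close relatives of a family of lipid-binding, cell-survival and immune regulators, and Tnfaip8l2 (TIPE2) is known as a brake on Toll-like receptor signalling. At 0 h Tnfaip8l2 ranked highest of the members in the M channel of the trypsin digest, within the top 11.2% of proteins by iBAQ (intensity per theoretical peptide), and Traf2 stood within the top 90.9% only. New Tnfaip8l2 in mock cells was 0.0757 and 0.102 at 4 h, 0.125 and 0.165 at 6 h, 0.229 and 0.228 at 9 h, 0.281 and 0.306 at 12 h and 0.415 and 0.497 at 24 h. In LPS cells the same times gave 0.0660 and 0.0563, 0.0423 and 0.0845, 0.0989 and 0.0789, 0.132 and 0.148, and 0.312 and 0.316. From 3 to 9 h no LPS value exceeded the higher of the 0 h samples (0.0855 and 0.113), and each LPS sample from 3 h on was below its mock pair.

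New Tnfaip8l2 fell late by 1.23 ± 0.21 on the log2 scale (limma, adjusted p = 0.000117, lower in 6 of 6 pairs), with -0.62 ± 0.26 at mid times (adjusted p = 0.418) and -0.06 ± 0.21 early (adjusted p = 1). The late change differed from the early one by -1.17 ± 0.30 (adjusted p = 0.0144), a call made for 6.49% of all proteins and for this one of 4 members tested. Without replicate 1 the late change was -1.18 (adjusted p = 0.0813) and without replicate 2 it was -1.29 (adjusted p = 0.165), so both single replicates gave a like size that did not pass. The deposited normalised ratios gave -1.99 late (adjusted p = 1.41e-05). With the 0 h background subtracted the late change could not be tested. Every LPS sample at 6 and 9 h lay below the 0 h mean of 0.0990, so mock was compared there with values at background. The difference between late and early did not pass without the run factor (-1.02, adjusted p = 0.359), from summed intensities (-0.82, adjusted p = 0.157) or in single replicates (-1.22 and -1.13, adjusted p = 0.25 and 0.499). At 24 h the change was -0.53 ± 0.36 (adjusted p = 0.51).

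The older Tnfaip8l2 pool differed less between the arms. It fell from 1.01 and 1.08 at 0 h to 0.786 and 0.818 at 12 h in mock samples and to 0.702 and 0.886 in LPS samples, which overlapped, and its late change was -0.09 ± 0.06 (adjusted p = 0.352). Total Tnfaip8l2 fell late by 0.26 ± 0.06 (adjusted p = 0.00159, lower in 6 of 6 pairs), a fold of 1.19, and by 0.09 without the run factor (adjusted p = 0.935). Replicate 2 or replicate 1 alone gave -0.24 and -0.27 (adjusted p = 0.0686 and 0.105), summed intensities -0.17 (adjusted p = 0.146) and the deposited normalised ratios -0.99 (adjusted p = 3.47e-05). New protein made up 26.2% and 27.6% of Tnfaip8l2 at 12 h in mock cells and 15.6% and 15.7% in LPS cells.

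Some markers of other myeloid cells fell late in new protein, but most did not. Of 8 macrophage markers tested 3 fell (Csf1r changed by -1.81, Apoe by -1.25 and Lyz2 by -0.95), 1 rose (Cd14) and 4 did not pass. Of 7 granulocyte markers 2 fell (Ltf and Ngp), 1 rose (Hp) and 4 did not pass. Over all proteins 1.69% were called lower and 10.4% higher. The median change was -0.19 for the macrophage list and -0.04 for the granulocyte list. The macrophage list took 0.361% to 0.558% of summed M and H intensity in late LPS samples and 0.470% to 0.620% in mock samples, and the granulocyte list 1.24% to 2.13% and 1.07% to 2.04%. The dendritic list, with none of its 4 tested markers called, took 0.0547% to 0.0843% in LPS and 0.0544% to 0.069% in mock samples. For each list the ranges overlapped between the arms, though such a sum may follow its most abundant proteins and not the list as a whole. The part of macrophages and granulocytes in the falls of Tnfaip8l2 and Tnfrsf26 was not tested. In bulk samples fewer cells of a type and less protein per cell cannot be told apart.

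**Figure D4:**
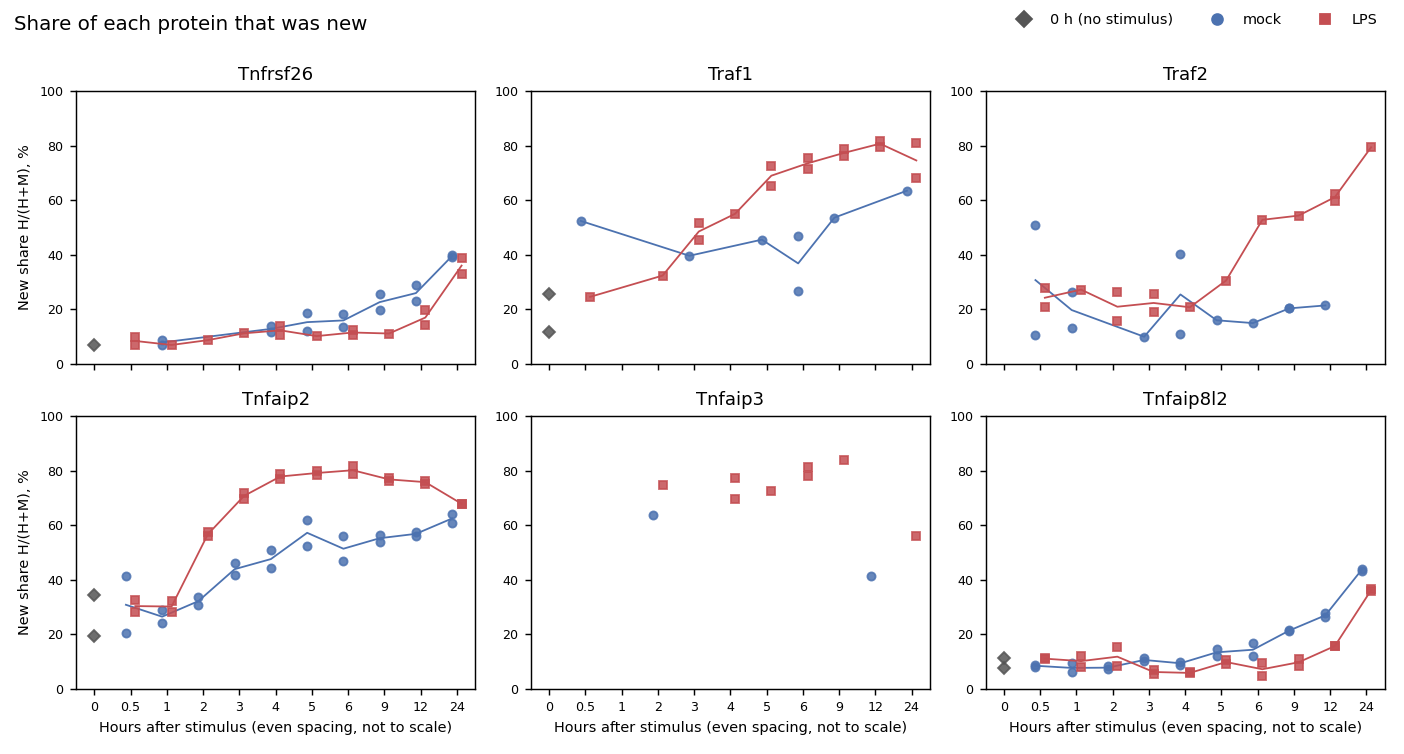
Share of each protein that was new, H/(H+M) in percent from the H/M ratio, for 6 members, 1 point per sample, with lines through the means where over 10 samples had a value. LPS samples of Traf1, Traf2 and Tnfaip2 stand above all mock samples in the late window. Those of Tnfaip8l2 and Tnfrsf26 lie below the mock sample of the same time and replicate number, with ranges that overlap.

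The replacement of old by new protein was compared as the slope of the log2 share of pre-existing protein from 0.5 to 12 h, which needs no light mix. Over all proteins 13.6% were called, most (399 of 453) with faster loss in LPS cells, and 3 of the 6 members tested passed. Tnfaip8l2 lost its old share at -0.030 per hour in mock and at -0.0052 per hour in LPS cells, a difference of 0.025 ± 0.004 per hour (limma, adjusted p = 2.96e-05). Tnfrsf26 changed from -0.030 to -0.011 per hour, a difference of 0.018 ± 0.005 (adjusted p = 0.0096). Without replicate 2 the difference was 0.0234 for Tnfaip8l2 (adjusted p = 0.0629) and 0.0209 for Tnfrsf26 (adjusted p = 0.0941), and without replicate 1 that of Tnfrsf26 was 0.0143 (adjusted p = 0.0573). With the deposited normalised ratios neither passed, at 0.111 for Tnfaip8l2 and 0.036 for Tnfrsf26 (adjusted p = 0.925 for each). Both thus belonged to the 54 proteins with slower loss of the old share after LPS, and Traf2 to those with faster loss. Tnfaip2 had the steep slopes of -0.068 in mock and -0.134 in LPS cells, and Tnfrsf1b had -0.056 and -0.130, and their differences did not pass (-0.066 ± 0.036, adjusted p = 0.321, and -0.074 ± 0.046, adjusted p = 0.408). A lower making rate and a slower loss both keep the old share high, and this slope does not separate them.

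The main Tnfaip8 group, a relative of Tnfaip8l2, showed no call in the late window. Its late new protein ran from 0.166 to 0.508 in LPS samples (median 0.237) and from 0.170 to 0.432 in mock samples (median 0.220), and the arms overlapped, with a change of 0.02 ± 0.41 (limma, adjusted p = 0.993). Late pre-existing and total Tnfaip8 changed by 0.10 ± 0.09 (adjusted p = 0.516) and 0.07 ± 0.10 (adjusted p = 0.726). At 24 h its total was 1.03 and 1.20 in LPS and 0.735 and 0.752 in mock samples, which did not overlap. That rise of 0.58 ± 0.17 passed (adjusted p = 0.0102, higher in 2 of 2 pairs), while new Tnfaip8 alone did not (0.68 ± 0.70, adjusted p = 0.762). The rise was 0.82 without the run factor (adjusted p = 0.529) and 0.49 without replicate 2 (adjusted p = 0.0738). It did not pass with the deposited normalised ratios (0.44, adjusted p = 0.723) or summed intensities (0.59, adjusted p = 0.233) either, and the handling of the 24 h samples is not stated in the sources used.

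The 2 minor Tnfaip8 groups rested on 1 peptide of their own each and were read in 17 and 8 runs for H/L. One had a new share of 3.96% to 9.16% in the stimulated samples, and the other reached 63.9% in an LPS sample and 47.0% in a mock sample at 24 h. From summed intensities the second of these passed in new protein late (1.26 ± 0.34, limma, adjusted p = 0.042, 5 LPS and 6 mock values), and the first in total protein at 24 h (0.42 ± 0.11, adjusted p = 0.0138). The 3 groups share peptides, so they are not replicates of each other.

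Early changes of new protein for Tnfrsf1b (-0.12 ± 0.45), the main Tnfaip8 group (-0.08 ± 0.44) and Tnfaip8l2 were all within 1 standard error of 0, and 1 of the 4 members tested early, Tnfaip2, passed. At mid times Tnfaip2 was again the 1 of 5 members that passed.

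By rank at 0 h the other members spread over the proteome. In the M channel of the trypsin digest the main Tnfaip8 group was within the top 38.3%, Tnfrsf1b 53.1%, Tnfaip2 54.3%, Tnfrsf26 54.5%, Tnip1 65.8% and Traf1 67.6% of 5319 proteins, and A20 was listed at 0. In unlabelled 0 h cells cut with AspN, Tnfaip8l2, Tnfaip8, Tnfaip2 and Tnfrsf1b were detected in both samples. With LysN, Tnfaip8, Tnfaip8l2, Tnip1 and Traf2 were detected in both. The order of the leading pair differed between digests, with Tnfaip8l2 within the top 38.2% and Tnfaip8 43.6% by AspN, and Tnfaip8 within the top 33.1% and Tnfaip8l2 36.6% by LysN. Tnfaip8 and Tnfaip8l2 were thus the members found with all 3 enzymes, and A20, Traf1 and Tnfrsf26 were read from trypsin alone.

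The wider pathway was counted from lists, to be read against the 10.4% of all proteins called higher and 1.69% called lower in new protein late. In the TNF receptor 1 complex, which joins TRADD, RIPK1 and the linear ubiquitin ligase to caspase-8, 7 of 18 proteins were tested and none passed in new protein late. Of the TRAF family and its associated adaptors 2 of 5 tested rose, Trafd1, a feedback protein with a TRAF-type zinc finger, by 1.69 ± 0.19 (limma, adjusted p = 4.27e-07) and the TRAF-binding Tank by 1.56 ± 0.50 (adjusted p = 0.049). On the list drawn up around the TAK1 and IKK kinases 1 of 3 tested rose, Mapkapk2, a kinase that promotes TNF translation, by 1.52 ± 0.18 (adjusted p = 6.58e-07). The IKK subunits themselves did not pass (Ikbkg -0.24 ± 0.31, adjusted p = 0.808, and Ikbkb 0.18 ± 0.32, adjusted p = 0.882). Of the TNF superfamily receptors the 2 tested were Cd40, the co-stimulatory receptor, which rose by 3.46 ± 0.50 (adjusted p = 1.41e-05), and Fas (0.25 ± 0.45, adjusted p = 0.88). Among A20 partners none of the 2 tested passed. The median change was 1.85 for the TNF superfamily list, 0.81 for the TRAF list and 0.30 for the receptor complex. It was 0.18 for the TAK1 and IKK list and 0.001 for A20 partners, against 0.03 over all proteins. Each of these medians rests on only the few proteins tested.

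By the course of the LPS minus mock difference over 9 or 10 times, the protein most like Tnfaip2 was the RNA helicase Ddx5 (Pearson r = 0.931), followed by Lnp (0.930) and the urokinase receptor Plaur (0.928). Most like Tnfaip8l2 were Sh3pxd2b (0.939), Mycbp2 (0.910) and Commd3 (0.894), and most like Tnfrsf1b were Epsti1 (0.899), Nrp2 (0.886) and Marcksl1 (0.873). For the main Tnfaip8 group they were Rfk (0.913), Mcmbp (0.884) and Dtymk (0.879). These are the highest of 3320 proteins set against each member, share runs and run factors with it, and are given as a description.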

How the data were processed

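The members and the pathway lists were chosen with earlier results of these data known. For every run and protein group the authors deposited SILAC ratio columns (H/L, M/L and H/M), with and without normalisation, and the number of peptide pairs behind each, per the file headers. The deposited intensity values are summed per channel, and iBAQ values, per the file headers, are divided by a protein's number of theoretical peptides. The search settings and the light mix's make-up are not given in the sources used, and mm9 is the build in the submitters' processing notes. Groups marked reverse (90), contaminant (97) or identified by site only (216) were left out of 6266. No per-sample column was left unmatched (0).

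A run factor (the median sum of H/L and M/L among the 2628 proteins whose M/L was measured in every run) divided the un-normalised ratios, and log2 values were fitted as group means with limma 3.58.1 in R 4.3.3 across all proteins, with Benjamini-Hochberg adjustment per comparison and a threshold of 0.05. A protein needed 4 of 6 values in each arm of the early and late windows, 3 of 4 at 4 and 5 h, 2 of 2 at 24 h, and 12 of 18 for slopes of -log2(1 + H/M) on hours, fitted over all groups. The fits were tested on simulated data. Runs held 64703 to 91015 H/L peptide pairs (median 80528.5), which limits precision, and no counting interval was computed. All 10 members, every called protein of the lists, and for each member with differences at 9 or more of 10 times the 3 proteins with the highest r are named. Alternatives were no run factor, each channel centred, the deposited normalised ratios, peptide pair minimums, summed intensities, 0 h background subtracted, a replicate block and single replicates, plus, chosen after seeing the data, at least 3 peptide pairs and leaving out LPS 12 h replicate 2. Promoters came from RefSeq's GRCm38.p6 table, from which windows for 8 of the 10 genes were read, while the background took every window. Figures used Python 3.11.15 and matplotlib 3.10.9, and the permutation test scipy 1.17.1.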

Additional observations from a re-analysis of the deposited data

Results flagged for a closer look

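The late effect of LPS on new Tnfaip8l2 differed from its early effect by -1.17 on the log2 scale (limma's test of the difference itself, adjusted p = 0.0144). The early effect was -0.06 ± 0.21 and the late effect -1.23 ± 0.21. LPS was lower in 6 of 6 late pairs of the same time and replicate.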

How the results depend on the processing

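The late rise of new and total Tnfaip2 passed in every alternative run, and the replicate block kept all 14 calls made for members and added 2, total Tnfrsf1b late (0.59, adjusted p = 0.0317) and pre-existing Tnfrsf26 late (-0.21, adjusted p = 0.0413). Deviations of same-numbered samples correlated above 0.1 in 102 of 210 pairs of conditions for H/L and in 202 of 210 for M/L. The median r was 0.09 for H/L and 0.28 for M/L. In every group the run factor was lower in replicate 1 than in replicate 2. The labels tie no number to a shared culture, and neither H/L nor M/L passed 0.1 in every pair. The numbers were therefore not taken to pair the samples. For M/L the data hint at such a pairing, and the block bears on pre-existing and total protein. The 2 added calls thus depend on this choice. With the replicate block 450 proteins were called in new protein late against 400. The minimum of 2 peptide pairs changed nothing, as 0 deposited ratios rest on fewer, and at least 3 pairs kept 8 of the 8 calls it could test. Without the run factor 4 of 11 kept their call, with summed intensities 6 of 11, with the normalised ratios 10 of 14, without replicate 1 it was 5 of 14 and without replicate 2 it was 2 of 13, where fewer samples enter each arm. The causes of the other differences were not tested.

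Over all proteins, calls without the run factor numbered 168 (new protein at 24 h, main 295), 2 (early, 16), 31 (mid, 72), 113 (late minus early, 204), 16 (pre-existing late, 566), 106 (total at 24 h, 1146) and 108 (total late, 636). Summed intensities gave 152, 8, 91, 221, 572 and 299 for these but mid, and 261 for new protein late. The deposited normalised ratios gave 161, 178, 38, 655, 955 and 335 for these but total late, and 0 slopes of 453 (limma, 59 at an unadjusted p under 0.05). They called 24.8% of 517 late changes in new protein as higher, against 86.0% of 400, and for the other comparisons 60.2% against 78.0% (24 h), 97.2% against 75.0% (early), 47.4% against 91.7% (mid), 6.7% against 89.7% (late minus early), 52.6% against 19.6% (pre-existing late) and 24.4% against 52.0% (total late). Subtracting the 0 h background gave 31 (24 h), 10 (early), 206 (late), 28 (late minus early) and 45 (mid). Single replicates gave 145 to 212 calls for new protein late, 21 to 30 at 24 h, 0 to 2 early, 0 mid, 18 to 66 for late minus early, 56 to 81 for pre-existing late, 691 to 751 for total at 24 h, 171 to 201 for total late and 245 to 342 for slopes. Leaving out LPS 12 h replicate 2 alone gave 352 for new protein late, 290 at 24 h, 14 early, 67 mid, 159 for late minus early, 518 for pre-existing late, 1151 for total at 24 h, 545 for total late and 409 slopes. At an unadjusted p under 0.05 the counts of 0 had 294 early, and 263 and 275 mid (limma).

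Values that did not pass and turned sign were those of pre-existing Tnfaip2 late (0.12 without the run factor, 0.05 normalised, 0.12 without replicate 2, 0.01 without LPS 12 h replicate 2), its slope (0.0447 normalised), Tnfrsf1b (0.58 early, normalised; 0.01 pre-existing late, intensities), total Traf2 late (0.45 normalised, 0.05 intensities), and Tnfaip8l2 (0.04 early without replicate 1 and -0.16 without replicate 2; pre-existing late 0.08 without the run factor, 0.05 normalised, 0.01 intensities). For the main Tnfaip8 group they were 0.17 early with background subtracted, new late -0.08 centred, -0.41 normalised and -0.18 without replicate 2 (0.22 without replicate 1), and total late -0.28 normalised and -0.0019 without replicate 2 (0.15 without replicate 1). Pre-existing Tnfaip2 late turned to 1.05 from summed intensities and passed. Ranks at 0 h by summed intensity moved to 49.1% and 72.7% for the 2 minor Tnfaip8 groups.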
